A study of Mus musculus with 18 samples.

Results

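Potassium channel genes are described here by the H3K27me3 peaks that lay on them in mouse embryonic headfolds. H3K27me3, trimethylation of histone H3 by Polycomb repressive complex 2, is found over genes that are kept silent. The genes were chosen by name: all protein-coding genes whose RefSeq symbol starts with Kcn, without Kcnq1, which gave 93 of 21896 protein-coding genes. A gene was counted as called in a library where a peak overlapped its span, extended by 1 kb at each end, by at least 1 bp. By this rule 69 of the 93 genes (74.2%) were called in at least 1 of 12 libraries, beside 20.2% of all protein-coding genes. A smaller set of 20 genes (21.5%) were called in at least 10 libraries, beside 5.93% of all protein-coding genes, and 7 genes (7.53%) in all 12, beside 2.18%.

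Potassium channels let potassium ions leave the cell, which sets the resting potential and ends the action potential. Voltage-gated channels are tetramers that open on depolarisation, inward rectifiers and tandem-pore domain channels set the potential at rest, and calcium- or sodium-activated channels follow the ion levels inside the cell. Many members are best known from mature neurons, heart muscle or transporting epithelia, tissues that the headfold has yet to form. In embryos, Polycomb repressive complex 2 is known to mark many genes of later cell types, most often around CpG-rich promoters.

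H3K27me3 was profiled by CUT&Tag, in which an antibody brings a transposase to the mark and the cut DNA is sequenced. Each library was made from 1 headfold, the anterior part of the embryo that holds the future brain, at embryonic day 8.5. Every embryo was Gulo-/-, a genotype without L-gulonolactone oxidase, which catalyses the final step by which mice make vitamin C. The backgrounds were 129 (129S6 in the design text) and B6, and vitamin C was given at 3.3 g/l in drinking water or not given. The 12 peak lists form 4 groups of 3 libraries, each with 2 female embryos and 1 male: 129 with vitamin C, 129 without, B6 with and B6 without. The 3 B6 embryos with vitamin C carried 1 pregnancy code, and each other group came from 3 pregnancies. The order of the library numbers runs with the background, so background and library number cannot be told apart. The series has 18 samples, of which 4 IgG controls and 2 further B6 H3K27me3 samples were not analysed here.

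The 12 lists differed widely in length, and the differences bear on every count below. They held 748 to 4726 peaks covering 3.58 to 31.7 Mb, with a median peak width of 1.32 to 8.45 kb. A pair of lists stood apart by short peaks, B6 with vitamin C replicate 2 (median 1.41 kb) and B6 without vitamin C replicate 1 (1.32 kb). Read depth is not part of the lists and is unknown, so signal was only ranked within a list and never compared between lists. Markers of the tissue could be read only for the mark, which does not show expression. Of the anterior neural plate markers, Otx2 was called in 3 libraries, Sox2 in 2 and Hesx1 in 0, whereas Six3 (11), Pax6 (12) and Rax (12) were called in most. The trunk genes Hoxc8, Hoxc9, Hoxc10, Hoxd10 and Hoxd11 were called in at least 10 libraries in 5 of 5 cases. Of blood and endothelial markers, Tal1 (12) and Kdr (10) were called, and Gata1, Hbb-y and Cdh5 were called in 0.

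Libraries that called more protein-coding genes also called more potassium channel genes, with few exceptions. In 129 with vitamin C, 48, 32 and 38 of the 93 genes were called (replicates 1, 2 and 3), and in 129 without vitamin C 46, 16 and 51. In B6 with vitamin C the counts were 34, 32 and 68 (replicates 1, 2 and 4), and in B6 without vitamin C 23, 11 and 43. The share of potassium channel genes called was 3.17 to 4.4 times the share of all protein-coding genes called in the same library (median 3.8), so it lay above the genome share in each of the 12 lists. The longest potassium channel list, B6 with vitamin C replicate 4, held 68 of the 69 genes called anywhere and was alone in calling 11 of them. Without that library 58 genes were called, beside 17.9% of all protein-coding genes. Of the other 11 libraries, 10 called no potassium channel gene outside that longest list, and 129 without vitamin C replicate 3 called 1 of its 51 outside it, the inward rectifier gene Kcnj2.

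**Figure D1:**
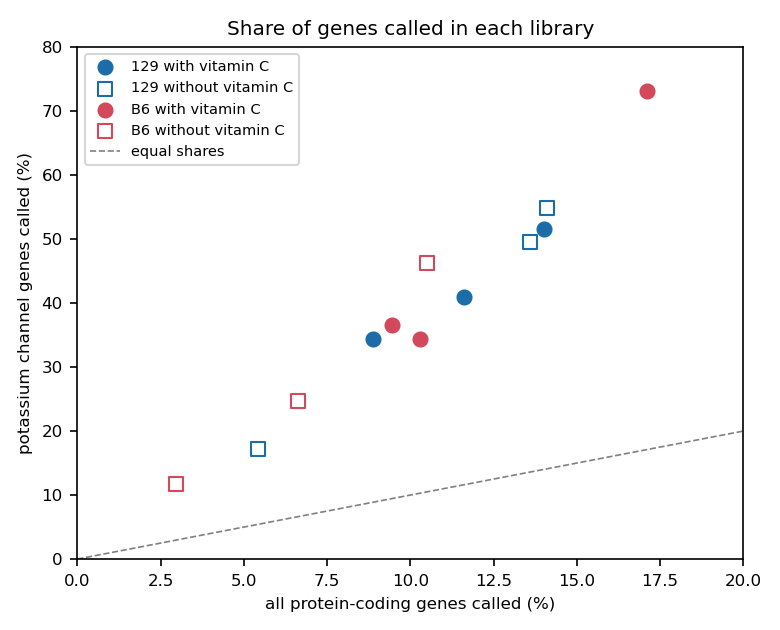
Share of potassium channel genes called (y axis, % of 93 genes) against the share of all protein-coding genes called (x axis, % of 21896 genes), 1 point per library, colour for background and filled points for vitamin C. The dashed line marks equal shares; the 12 points lie above it, from 11.8% against 2.97% to 73.1% against 17.1%.

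Genes called in many libraries were spread over the channel families, and differences between families were not tested. Voltage-gated pore subunits (Kcna, Kcnb, Kcnc, Kcnd, Kcnh and Kcnq) had 7 of 29 genes called in at least 10 libraries, 18 in 1 to 9 and 4 in 0. The modifier subunits (Kcnf, Kcng, Kcns and Kcnv), which form no channel alone and alter the channels of others, had 3, 6 and 1 of 10 genes in these classes. Tandem-pore domain channels (Kcnk) had 6, 4 and 4 of 14 genes, and inward rectifiers (Kcnj) 1, 9 and 5 of 15. Of the 8 genes grouped by family with the calcium- or sodium-activated channels (Kcnma, Kcnn, Kcnt and Kcnu), 2 were called in at least 10 libraries. A further 4 were called in 1 to 9 and 2 in 0. Auxiliary and regulatory proteins (Kcnab, Kcne, Kcnip, Kcnmb and Kcnrg) had 1 of 17 genes in at least 10 libraries, 8 in 1 to 9 and 8 in 0. By subfamily, Kcns stood highest with 86.1% of gene and library pairs called (3 genes), followed by the single genes Kcnma1 (83.3%) and Kcnf1 (75%), Kcnc with 64.6% (4 genes) and Kcnq with 62.5% (4 genes). The lowest shares were those of Kcnmb, the auxiliary subunits of the BK channel (2.08%, 4 genes), and of Kcnrg and Kcnu1 (0%).

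**Figure D2:**
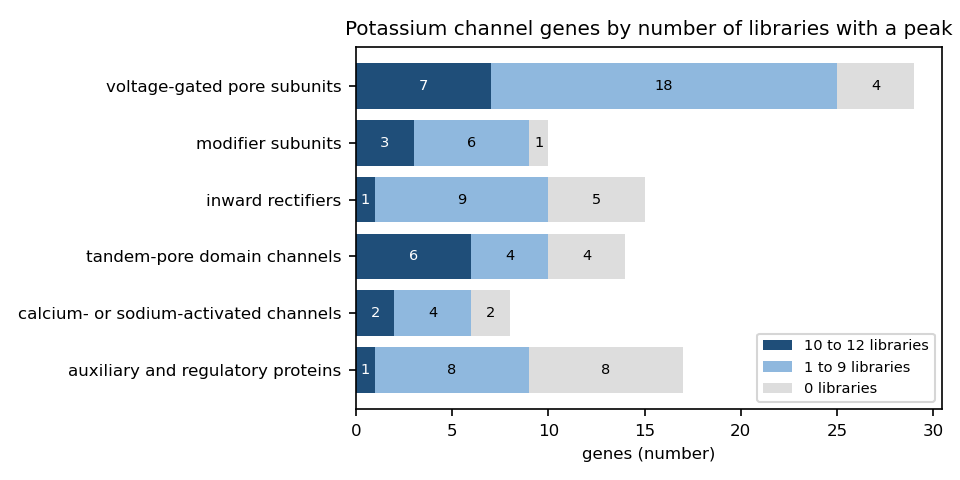
Number of potassium channel genes (x axis) in each functional class (y axis), split into genes called in 10 to 12, 1 to 9 and 0 of 12 libraries. Tandem-pore domain channels have 6 of 14 genes in the first class and auxiliary proteins 1 of 17.

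Most calls came with a peak at a transcription start. RefSeq start sites were listed for 69 of the 93 genes, of which 50 were called. In these, 294 of 320 calls (91.9%) had a peak within 1 kb of a listed start, beside 80.4% of calls over all protein-coding genes. For the 15 genes called in at least 10 libraries that have a listed start, the share was 96.4%, beside 85.3% of calls over all protein-coding genes called that often. In 15 of these 15 genes the start lay inside the typical peak, which reached from -3.28 to 4.37 kb relative to the start (medians over genes of the median edges). The edges were taken only over libraries with a peak within 1 kb of a listed start. That choice by itself makes a start inside the typical peak likely. The peak reached farther into the gene than upstream in 9 of 15. The widest upstream reach was that of Kcnj4, with a median edge at -14.4 kb, and the widest downstream reach that of Kcnk4, at 8.81 kb. The only listed Kcnj4 start lies inside the annotated gene (chr15:79480226-79512511, minus strand), so part of its upstream reach lies within the gene. Exceptions were Kcnj12, an inward rectifier of heart and muscle, with 8 calls and 0 within 1 kb of a listed start, and Kcnip4, with 4 calls and 0. The Kcnj12 region (chr11:61017512-61027186) and the main Kcnip4 region (chr5:49522097-49527227) each spanned an end of the annotated gene, at which the promoter table lists no start. Gene length can raise the chance of an overlap, and the genes had a median span of 32.5 kb beside 17.1 kb over all protein-coding genes. When only peaks within 1 kb of a start counted (either gene end where no start is listed), 20 genes were called in at least 10 libraries, beside 4.5% of all protein-coding genes.

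**Figure D3:**
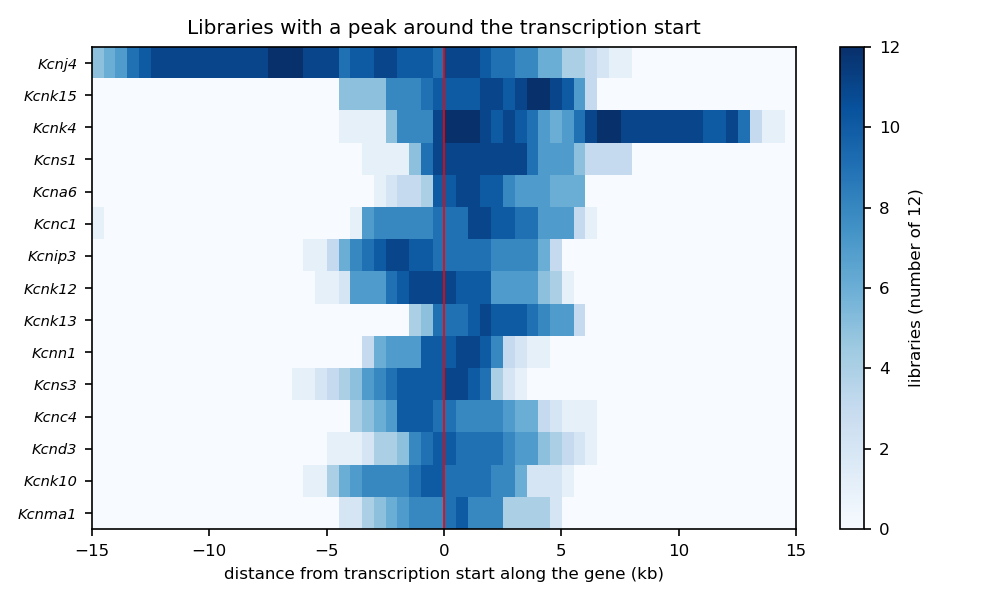
Number of libraries with a peak (colour, 0 to 12) by distance from the transcription start along the gene (x axis, kb, negative before the start) for the 15 potassium channel genes called in at least 10 libraries with a listed start (y axis). The start (red line) lies within the covered stretch of each gene, and Kcnj4 and Kcnk4 carry the widest stretches.

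Promoters of genes called in many libraries held more CpG in the median than those of uncalled genes, with wide overlap. In the 300 bases around the most upstream listed start (RefSeq, GRCm38.p6), the median number of CpG was 17 in the 15 genes called in at least 10 libraries, 10 in the 35 called in 1 to 9 and 8 in the 19 called in 0. Over all protein-coding genes with a listed start the medians were 13, 19 for those called in at least 10 libraries and 11 for those called in 0. The 250 bases before the start are shown for the genes with a listed start that were called in 12 libraries. For each of their subfamilies the uncalled gene of longest span is shown as well, where there is one. These genes were chosen after their values were seen. Each is written 5′ to 3′ along the gene with CpG in capitals. Kcnj4, Kcnk15 and Kcns1 were called in 12 libraries and hold 35, 17 and 17 CpG in these bases (chr15:79505242-79505491 minus strand, chr2:163853500-163853749 plus strand and chr2:164171114-164171363 minus strand).
Kcnj4: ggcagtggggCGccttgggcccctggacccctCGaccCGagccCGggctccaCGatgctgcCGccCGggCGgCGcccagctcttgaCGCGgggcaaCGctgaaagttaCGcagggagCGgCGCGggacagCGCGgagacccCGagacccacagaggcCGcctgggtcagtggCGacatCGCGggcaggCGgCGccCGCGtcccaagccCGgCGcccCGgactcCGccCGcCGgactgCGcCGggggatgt
Kcnk15: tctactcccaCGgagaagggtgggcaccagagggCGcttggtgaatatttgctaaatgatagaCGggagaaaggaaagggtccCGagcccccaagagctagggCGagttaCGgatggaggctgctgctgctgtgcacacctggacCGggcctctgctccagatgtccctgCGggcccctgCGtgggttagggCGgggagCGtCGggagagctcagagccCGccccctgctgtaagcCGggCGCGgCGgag
Kcns1: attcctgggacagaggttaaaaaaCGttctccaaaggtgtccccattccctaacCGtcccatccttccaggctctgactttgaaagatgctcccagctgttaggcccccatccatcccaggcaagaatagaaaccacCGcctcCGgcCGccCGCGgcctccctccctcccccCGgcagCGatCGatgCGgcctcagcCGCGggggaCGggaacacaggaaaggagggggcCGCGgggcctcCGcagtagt
Kcnk4 was called in 12 libraries as well and holds 3 CpG in its 250 bases (chr19:6934516-6934765 minus strand).
Kcnk4: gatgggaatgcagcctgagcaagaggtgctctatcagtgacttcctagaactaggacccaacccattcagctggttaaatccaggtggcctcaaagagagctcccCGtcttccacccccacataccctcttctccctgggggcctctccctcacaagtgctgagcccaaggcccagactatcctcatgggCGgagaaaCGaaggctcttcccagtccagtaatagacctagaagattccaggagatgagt
By contrast, Kcnk5 and Kcnj16 were called in 0 libraries, with 19 CpG (chr14:20181783-20182032 minus strand) and 3 CpG (chr11:110967783-110968032 plus strand).
Kcnk5: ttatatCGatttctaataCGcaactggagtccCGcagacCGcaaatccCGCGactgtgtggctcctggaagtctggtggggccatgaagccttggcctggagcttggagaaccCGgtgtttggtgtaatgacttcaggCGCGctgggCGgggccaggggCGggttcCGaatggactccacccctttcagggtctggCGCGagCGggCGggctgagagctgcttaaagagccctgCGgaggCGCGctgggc
Kcnj16: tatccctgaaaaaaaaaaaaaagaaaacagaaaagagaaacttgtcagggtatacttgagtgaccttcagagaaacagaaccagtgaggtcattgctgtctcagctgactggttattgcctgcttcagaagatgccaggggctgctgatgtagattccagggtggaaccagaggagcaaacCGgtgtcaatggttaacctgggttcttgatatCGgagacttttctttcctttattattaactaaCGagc
A promoter rich in CpG was thus seen both with calls (Kcnj4) and without (Kcnk5), as was a promoter poor in CpG (Kcnk4 and Kcnj16). The bases shown for Kcnj4 lie before a start that is inside the annotated gene (chr15:79480226-79512511). The Kcnk4 region also covered Catsperz, Esrra and Gpr137, and the Kcnj4 region Kdelr3. A peak there cannot be assigned to a single gene from the lists alone. Kcnmb4, a BK channel auxiliary subunit called in 0 libraries, had the highest CpG count of the uncalled genes (48 in 300 bases).

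**Figure D4:**
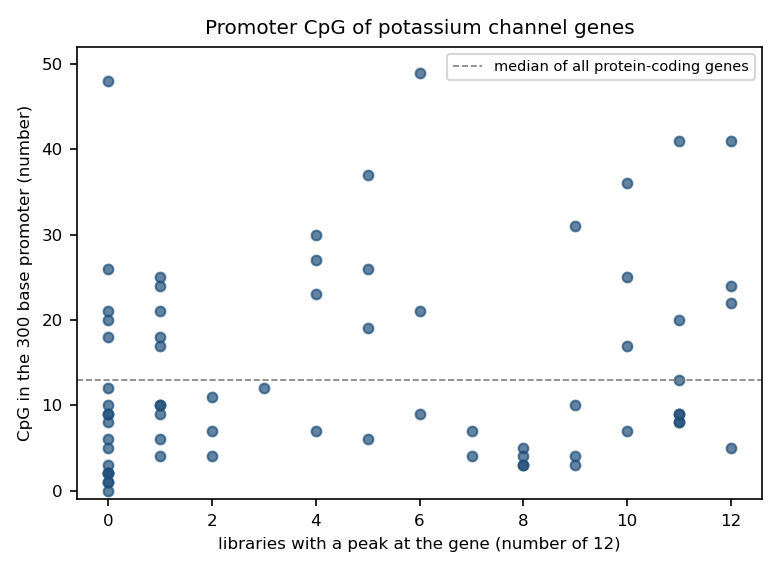
CpG in the 300 base promoter (y axis, number) against the number of libraries with a peak (x axis, of 12) for the 69 potassium channel genes with a listed start, 1 point per gene. The dashed line is the median of all protein-coding genes (13); genes on both sides of it are found at 0 and at 10 to 12 libraries.

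The values that follow give the width of the widest peak at a gene in each library, in the order of the groups above and of the replicates within them. A library without a peak is given as none. Regions, in mm10 coordinates, join the overlapping peaks of all libraries. The percentile is the rank of the highest maximum signal at the gene among all peaks of the same list, so that 100 is the strongest peak. Over all peaks at potassium channel genes the median percentile per library was 17.7 to 53.7 (median of the 12 libraries 47.5), beside 44.7 to 54.8 (51.7) for all peaks at protein-coding genes. The typical potassium channel peak ranked near the middle of its list in 11 libraries and low in 129 without vitamin C replicate 2 (17.7), and single genes stood far above it.

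**Figure D5:**
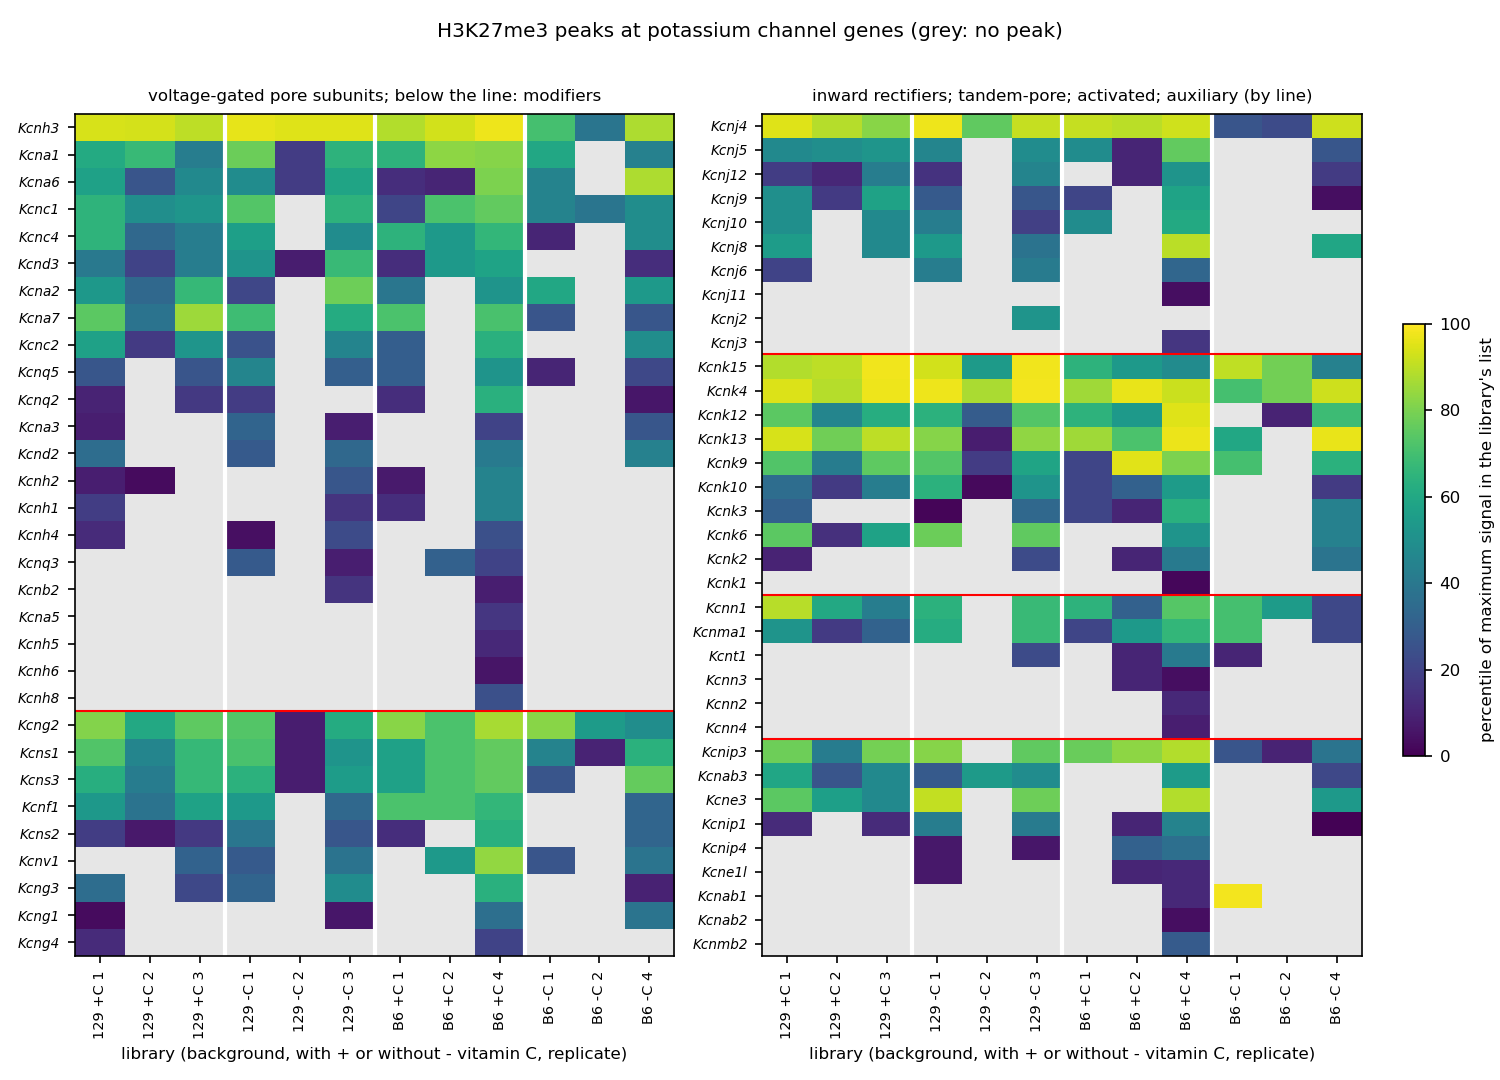
Percentile of maximum signal within the library's list (colour, 0 to 100; grey where no peak) for called potassium channel genes (y axis, by functional class, red lines between classes) in the 12 libraries (x axis, +C with and -C without vitamin C, white lines between groups). Kcnh3, Kcnj4 and Kcnk4 are bright in most columns, and B6 without vitamin C replicate 2 is grey in most rows.

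Among voltage-gated pore subunits, Kcnh3 was called in all 12 libraries. Kcnh3 encodes a channel of the ether-a-go-go family found in forebrain neurons, and its region lay at chr15:99218933-99235422 with no other protein-coding gene under it. Kcnh3 peak widths were 16, 15.1 and 8.94 kb in 129 with vitamin C, 7.96, 6.33 and 12.7 kb in 129 without, 9.83, 6.61 and 14.4 kb in B6 with, and 2.93, 5.97 and 11.3 kb in B6 without. Its peak ranked at a median percentile of 93.4 (38.9 to 97.5), and its narrowest peak was in the short-peak library B6 without vitamin C replicate 1.

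The Shaker-type genes Kcna1 and Kcna6, which encode delayed rectifiers of axons, lie close together on chromosome 6 and were each called in 11 libraries in separate regions (chr6:126637073-126648806 and chr6:126734561-126743518). Kcna1 peak widths were 10.9, 5.64 and 8.14 kb in 129 with vitamin C, 11.7, 6.31 and 11.3 kb in 129 without, 5.58, 2.95 and 7.15 kb in B6 with, and 1.9 kb, none and 6.92 kb in B6 without. Kcna6 peak widths were 8.02, 8.15 and 6.63 kb in 129 with vitamin C, 8.65, 3.01 and 6.73 kb in 129 without, 3.25, 1.81 and 7.12 kb in B6 with, and 2.06 kb, none and 5.17 kb in B6 without. Both lacked a peak in B6 without vitamin C replicate 2, the shortest list. Kcna5, which lies in the same cluster at chr6:126532551-126535555, was called in 1 library. A second cluster, on chromosome 3, was uneven in the same way: Kcnc4 was called in 10 libraries, Kcna2 in 9, Kcna3 in 5 and Kcna10 in 0, and no region was shared between them.

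Channels of fast-firing neurons and of the transient outward current were also called often. Kcnc1, which lets neurons fire at high rates, was called in 11 libraries (chr7:46392712-46402846). Kcnc1 peak widths were 9.79, 8.93 and 9.76 kb in 129 with vitamin C, 8.89 kb, none and 9.37 kb in 129 without, 7.32, 2.21 and 8.59 kb in B6 with, and 0.92, 7.63 and 6.19 kb in B6 without. Kcnc4 encodes a fast-inactivating relative of it (chr3:107452198-107463030). Kcnc4 peak widths were 8.03, 7.99 and 7.3 kb in 129 with vitamin C, 8.99 kb, none and 10.6 kb in 129 without, 5.1, 2.52 and 7.74 kb in B6 with, and 1.16 kb, none and 4.56 kb in B6 without. Kcnc4 lacked a peak in the shortest list of each background without vitamin C. Kcnd3, a channel of the transient outward current in heart and neurons, was called in 10 libraries at its start (chr3:105446828-105458516). Kcnd3 peak widths were 9.9, 10.4 and 7.77 kb in 129 with vitamin C, 7.79, 4.75 and 6.96 kb in 129 without, 3.58, 1.41 and 7.08 kb in B6 with, and none, none and 5.09 kb in B6 without. Its 2 libraries without a peak were both B6 without vitamin C. The pore subunit genes called in 0 libraries were Kcnh7, Kcna4, Kcna10 and Kcnd1.

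Of the modifier subunits, Kcns1 and Kcng2 were called in all 12 libraries and Kcns3 in 11. Kcns1 peak widths were 9.74, 9.36 and 6.97 kb in 129 with vitamin C, 9.32, 3.38 and 6.97 kb in 129 without, 2.43, 2.75 and 9.36 kb in B6 with, and 1.94, 4.77 and 6.95 kb in B6 without. Kcng2 peak widths were 10, 5.89 and 6.46 kb in 129 with vitamin C, 7.03, 3.64 and 6.94 kb in 129 without, 3.31, 1.82 and 6.54 kb in B6 with, and 3.56, 3.6 and 5.64 kb in B6 without. Kcns3 peak widths were 9.5, 5.73 and 7.68 kb in 129 with vitamin C, 7.92, 4.93 and 6.45 kb in 129 without, 4.25, 1.83 and 7.23 kb in B6 with, and 2.09 kb, none and 5.67 kb in B6 without. The Kcns1 region (chr2:164162934-164174536) covered the whole 7.5 kb gene. Kcng2 carried 3 separate regions, called in 12, 7 and 5 libraries. In each of the 3 genes the narrowest peak belonged to a short-peak library. Kcnf1 followed with 9 libraries, Kcns2 with 8 and Kcnv1 with 7. Kcns2 peak widths were 9.04, 5.93 and 5.29 kb in 129 with vitamin C, 4.69 kb, none and 5.44 kb in 129 without, 4.37 kb, none and 6.44 kb in B6 with, and none, none and 5.72 kb in B6 without. Kcnv1 peak widths were none, none and 2.5 kb in 129 with vitamin C, 3.77 kb, none and 3.04 kb in 129 without, none, 1.12 kb and 3.04 kb in B6 with, and 0.837 kb, none and 2.63 kb in B6 without. The widest Kcnv1 peak, 3.77 kb, was narrower than the narrowest of Kcns2, 4.37 kb. Kcnv2, known from photoreceptors, was called in 0.

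Among inward rectifiers, Kcnj4 stood alone in the class called in at least 10 libraries. It encodes a strong inward rectifier of heart and forebrain, and its region was the widest at any potassium channel gene called that often (chr15:79497393-79521040, 23.6 kb), reaching over the neighbouring Kdelr3. Kcnj4 peak widths were 21.8, 22.9 and 21.3 kb in 129 with vitamin C, 19, 16.4 and 22.4 kb in 129 without, 19.1, 8.03 and 18.3 kb in B6 with, and 1.46, 9.04 and 18.2 kb in B6 without. The peak ranked at a median percentile of 90.4, with low values of 26.2 and 22.9 in B6 without vitamin C replicates 1 and 2. Kcnj9, a subunit of G protein-gated channels, and Kcnj10, the rectifier of glia, shared a region (chr1:172324070-172344451), the only one shared by potassium channel genes. Kcnj9 peak widths were 20.4, 6.14 and 7.18 kb in 129 with vitamin C, 5.59 kb, none and 6.14 kb in 129 without, 2.33 kb, none and 6.16 kb in B6 with, and none, none and 6.1 kb in B6 without. In 129 with vitamin C replicate 1 a single peak of 20.4 kb spanned both genes. Kcnj8, the pore of the ATP-sensitive channel of blood vessels, was called in 6 libraries. Kcnj8 peak widths were 7.99 kb, none and 6.21 kb in 129 with vitamin C, 7.7 kb, none and 4.95 kb in 129 without, none, none and 3.92 kb in B6 with, and none, none and 3.3 kb in B6 without. Its peaks fell in 4 libraries of 129 and 2 of B6. Kcnj11, the pore of the ATP-sensitive channel of pancreatic beta cells, was called in 1 library, and the kidney channel gene Kcnj1 in 0.

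Of the 6 functional classes, tandem-pore domain channels had the largest share of genes called in at least 10 libraries (42.9%). Kcnk4 encodes a mechanosensitive leak channel of neurons, and Kcnk15 a relative of the acid-sensitive leak channels. Kcnk4 peak widths were 18, 15.4 and 16.9 kb in 129 with vitamin C, 16.1, 7.26 and 15.6 kb in 129 without, 7.47, 3.27 and 8.03 kb in B6 with, and 1.69, 7.12 and 15.6 kb in B6 without. Kcnk15 peak widths were 11.2, 10.7 and 10.6 kb in 129 with vitamin C, 11.1, 8.2 and 10.8 kb in 129 without, 2.86, 1.6 and 8.47 kb in B6 with, and 2.13, 5.74 and 8.67 kb in B6 without. Both regions held other protein-coding genes: Catsperz, Esrra and Gpr137 with Kcnk4 (chr19:6920124-6939162) and Rims4 with Kcnk15 (chr2:163849234-163860438). A peak there cannot be assigned to 1 of these genes from the lists alone. Kcnk4 had a median percentile of 92.1 and was never below 70.7. Kcnk15 peaks were 8.2 to 11.2 kb wide in the 6 libraries of 129 and 1.6 to 8.67 kb in the 6 of B6.

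The other Kcnk genes called often were Kcnk9, an acid-sensitive leak channel, the halothane-inhibited channel Kcnk13 with its relative Kcnk12, and the lipid- and stretch-sensitive Kcnk10. Kcnk9 peak widths were 13.3, 8.72 and 12 kb in 129 with vitamin C, 12.6, 3.82 and 11.1 kb in 129 without, 4.33, 4.05 and 9.29 kb in B6 with, and 4.92 kb, none and 8.81 kb in B6 without. Kcnk12 peak widths were 9.46, 8.45 and 8.83 kb in 129 with vitamin C, 9.1, 7.66 and 10.4 kb in 129 without, 4.89, 1.89 and 8.92 kb in B6 with, and none, 4.15 kb and 5.16 kb in B6 without. Kcnk13 peak widths were 7.68, 6.14 and 6.06 kb in 129 with vitamin C, 7.69, 5.96 and 7.07 kb in 129 without, 4.16, 2.97 and 6.62 kb in B6 with, and 1.02 kb, none and 5.29 kb in B6 without. Kcnk12 was marked at both ends, at chr17:87792742-87803439 in 11 libraries and at chr17:87741027-87749046 in 10. Kcnk10 peak widths were 10.8, 7.56 and 8.89 kb in 129 with vitamin C, 10.2, 4.26 and 9.41 kb in 129 without, 5.52, 3.83 and 7.44 kb in B6 with, and none, none and 4.87 kb in B6 without. Kcnk10 lacked a peak in B6 without vitamin C replicates 1 and 2. Kcnk5, Kcnk7, Kcnk16 and Kcnk18 were called in 0 libraries.

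The calcium-activated channels were represented by Kcnn1, a small-conductance channel (chr8:70858985-70866880), and Kcnma1, the large-conductance BK channel. Kcnn1 peak widths were 6.13, 6.11 and 5.17 kb in 129 with vitamin C, 6.59 kb, none and 7.82 kb in 129 without, 3.37, 2.36 and 5.41 kb in B6 with, and 1.61, 3.86 and 4.89 kb in B6 without. Kcnma1 peak widths were 9.57, 7.54 and 6.97 kb in 129 with vitamin C, 6.13 kb, none and 6.92 kb in 129 without, 4.11, 0.847 and 8.43 kb in B6 with, and 1.04 kb, none and 4.44 kb in B6 without. Kcnma1 spans 712.8 kb, and its only region, of 9.57 kb, lay at its start (chr14:23999160-24008727). The testis channel gene Kcnu1 was called in 0 libraries. Kcnip3, a calcium sensor that binds voltage-gated channels, was the only auxiliary gene called in at least 10 libraries (chr2:127477480-127488508). Kcnip3 peak widths were 10.8, 9.4 and 8.01 kb in 129 with vitamin C, 8.42 kb, none and 8.75 kb in 129 without, 8.79, 1.85 and 9.6 kb in B6 with, and 1.28, 4.28 and 9.45 kb in B6 without. Its median percentile was 77.3, and its 2 narrowest peaks were those of the short-peak libraries. Kcnab3 was called in 8 libraries and Kcne3 in 7, whereas 3 of 4 Kcnmb and 3 of 5 Kcne genes were called in 0. Kcnmb2, the most often called Kcnmb gene, had 1 call, a 3.1 kb peak in B6 with vitamin C replicate 4. The Kcnab1 call in B6 without vitamin C replicate 1 was a peak of 0.068 kb at percentile 98.2, far narrower than the other peaks named here.

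The first comparison asked whether potassium channel genes were called differently without vitamin C. No potassium channel gene passed the test, and most of those called anywhere were called in fewer libraries without it, as were most protein-coding genes called anywhere. The share of the 93 genes called was 42.3% ± 8.69 with and 40.5% ± 20.4 without vitamin C in 129, and 48% ± 21.8 with and 27.6% ± 17.4 without in B6 (mean ± SD, n = 3 each). The mean difference, without minus with, was -11.1 percentage points, beside -3.02 for all protein-coding genes, whose shares were 11.5% ± 2.55 and 11.1% ± 4.88 in 129 and 12.3% ± 4.21 and 6.7% ± 3.76 in B6. In each library the share for potassium channel genes was 3.17 to 4.4 times that for all genes. Differences in points for the 93 genes and for all genes, here and below, therefore start from unlike levels. The pooled SD between single libraries of a group was 17.8 points, which is not the spread of a difference between means, and the difference in share was not tested. It was -4.84 points when B6 with vitamin C replicate 4 was left out and -5.29 on omission of 129 without vitamin C replicate 2. In B6 without vitamin C it was -7.17 on omission of replicate 2 and -15.8 on omission of replicate 4. When each list was reduced to its 748 peaks of largest total signal, the difference was -0.896 points, beside -0.386 for all protein-coding genes.

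Gene by gene, the number of calling libraries was lower without vitamin C for 46 of the 69 called genes, higher for 4 and equal for 19. Of the 4426 protein-coding genes called anywhere it was lower for 2957, higher for 413 and equal for 1056. Of the 46 genes, 11 were called in B6 with vitamin C replicate 4 alone. The exact permutation test (two-sided, 400 relabellings within background, Benjamini-Hochberg over 4426 genes) called 0 potassium channel genes at an adjusted p under 0.05. It also called 0 at an unadjusted p under 0.05, beside 0.0226% of all genes tested. In this test a gene called in 1 to 4 or 8 to 12 libraries cannot reach such a p. Only genes called in 5 (4 genes), 6 (4 genes) or 7 libraries (5 genes) could reach it at all. The 0 therefore does not show that presence was unchanged. The lowest p was 0.2, for Kcnf1 and Kcnj5 (exact permutation, adjusted p = 1). Kcnf1, a modifier subunit, was called in 6 of 6 libraries with vitamin C and 3 of 6 without. Kcnf1 peak widths were 6.12, 5.54 and 5.38 kb in 129 with vitamin C, 5.74 kb, none and 5.72 kb in 129 without, 3.08, 2.71 and 5.51 kb in B6 with, and none, none and 4.29 kb in B6 without. Kcnj5, a G protein-gated channel subunit of the heart atrium, had the same counts. Kcnj5 peak widths were 7.74, 5.12 and 5.46 kb in 129 with vitamin C, 5.96 kb, none and 5.34 kb in 129 without, 4.83, 1.33 and 4.94 kb in B6 with, and none, none and 4.44 kb in B6 without. In both genes the libraries without a peak were the list that covered least in 129 and the 2 that covered least in B6, all without vitamin C. Kcnh2, the channel of the rapid delayed rectifier current in heart, was called in 4 of 6 libraries with and 1 of 6 without. Kcnh2 peak widths were 10.9 kb, 8.51 kb and none in 129 with vitamin C, none, none and 6.88 kb in 129 without, 5.01 kb, none and 9.3 kb in B6 with, and none, none and none in B6 without. Its peaks ranked low, at percentiles of 2.96 to 44.6. Kcnj9, Kcns2 and Kcnc4 differed by 2 libraries in this direction. In the other direction, Kcna3, Kcnv1, Kcnj2 and Kcnd2 were each called in 1 more library without vitamin C. Kcna3 and Kcnd2, which encode channels of lymphocytes and of neuronal dendrites, were called in the same 5 libraries, with peaks of 3.31 to 5.01 kb and 3.36 to 4.85 kb.

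Width gave no call either. The share of each gene window covered by peaks was lower without vitamin C for 59 of 69 genes and higher for 10, beside 3747 and 671 of the 4426 protein-coding genes called anywhere. Of the potassium channel genes 0 had an unadjusted p under 0.05 (exact permutation), beside 1.6% of all genes tested. The lowest p was 0.06, for Kcnma1 (exact permutation, adjusted p = 1). Without B6 without vitamin C replicate 4, 5 of 69 potassium channel genes had an unadjusted p under 0.05, beside 216 of 4420 genes tested, and 0 had an adjusted p under 0.05. Within 1 background the smallest p that 3 against 3 libraries allow is 0.1, so complete separations were counted instead. In 129, 0 potassium channel genes were called in 3 of 3 libraries with vitamin C and 0 of 3 without (0.0452% of all genes tested), and 0 the other way round (0.0226%). In B6 the counts were 0 (1.54% of all genes) and 0 (0%).

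The second comparison set B6 against 129. No potassium channel gene passed the test on presence, and 10 had a lower covered width in B6 at an unadjusted p under 0.05, a share close to the genome background. The share of the 93 genes called differed by -3.58 percentage points in B6 minus 129 (all protein-coding genes -1.78), beside a pooled SD between single libraries of 17.8 points. This difference was not tested. It was 0 on omission of 129 without vitamin C replicate 3 (all genes -1.02). On omission of replicate 2 of B6 without vitamin C it was 0.358 (all genes -0.85). Of the 69 genes, 23 were called in more B6 libraries, 29 in more 129 libraries and 17 equally. For the 4426 protein-coding genes called anywhere the counts were 1187, 2208 and 1031. Of the 23 genes, 11 were called in B6 with vitamin C replicate 4 alone. For presence, 0 genes had an unadjusted p under 0.05 (exact permutation), beside 0.339% of all genes tested. As for diet, genes called in 1 to 4 or 8 to 12 libraries could not reach such a p. Kcnab3, a subunit that binds Shaker-type channels, had the lowest p of 0.08 (exact permutation, adjusted p = 1). Kcnab3 peak widths were 8.11, 6.85 and 6.54 kb in 129 with vitamin C, 6.66, 3.37 and 6.71 kb in 129 without, none, none and 6.74 kb in B6 with, and none, none and 3.4 kb in B6 without. It was called in 6 of 6 libraries of 129 and 2 of 6 of B6, in a region that also covers Trappc1. Kcne3, an auxiliary subunit of epithelia, and the tandem-pore gene Kcnk6 were each called in 5 of 6 libraries of 129 and 2 of 6 of B6. Kcne3 peak widths were 6.98, 6.71 and 5.21 kb in 129 with vitamin C, 6.83 kb, none and 7.89 kb in 129 without, none, none and 7.1 kb in B6 with, and none, none and 4.66 kb in B6 without. Kcnk6 peak widths were 8.9, 5.83 and 4.33 kb in 129 with vitamin C, 6.71 kb, none and 7.83 kb in 129 without, none, none and 4.44 kb in B6 with, and none, none and 4.42 kb in B6 without. In both, the B6 library without vitamin C with a peak was replicate 4 and the one with vitamin C was replicate 4 as well. In the other direction, Kcnn3 and Kcnab1 had peaks in 2 B6 libraries and 0 of 129, and Kcnt1, a sodium-activated channel, in 3 and 1. Their peaks were 0.068 to 5.24 kb wide. The 2 Kcnab1 peaks lay in separate regions, each of 1 library (chr3:65036461-65036528 and chr3:65108105-65111021).

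For covered width, a comparison added after the data had been seen, 10 of 69 genes (14.5%) had an unadjusted p under 0.05 (exact permutation), beside 13.2% of all genes tested, and 0 passed adjustment (lowest adjusted p over all genes 0.311). The count was 22 on omission of 129 without vitamin C replicate 2, beside 1120 of all genes tested, and 6 on omission of 129 without vitamin C replicate 1 or replicate 3, beside 297 and 308. It was 5 without both short-peak libraries (167 of all genes) and 3 without the longest and the shortest list (171). The 10 genes, all lower in B6, were Kcnj4, Kcnk15, Kcna1, Kcna6, Kcnk12, Kcnk13, Kcns3, Kcnd3, Kcnk10 and Kcnab3. Kcna1 was covered over 81, 46.2 and 55.3% of its window in 129 with vitamin C, 85.8, 54.6 and 82.7% in 129 without, 44.2, 26 and 46.3% in B6 with, and 16.7, 0 and 44.3% in B6 without (exact permutation p = 0.01, adjusted p = 0.311). The highest value in B6, 46.3%, lay just above the lowest in 129, 46.2%. Median peak widths were 4.1 to 8.45 kb in the 6 lists of 129 and 1.32 to 4.89 kb in those of B6, and the part of these widths in the difference was not tested.

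The third comparison asked whether the diet difference depended on background. The difference in 129 minus that in B6 had an unadjusted p under 0.05 in 0 potassium channel genes (exact permutation), beside 0.0452% of all genes tested. Adjustment left 0 as well. Here too, genes called in 1 to 4 or 8 to 12 libraries could not reach such a p. The lowest p was 0.08, for Kcnip4, a calcium sensor, and Kcnq3, a subunit of the M current of neurons (exact permutation, adjusted p = 1). Both were called in 129 without vitamin C replicates 1 and 3 and in B6 with vitamin C replicates 2 and 4. Each thus had 2 of 3 libraries without and 0 of 3 with vitamin C in 129, and the reverse in B6. These calls did not all lie at the same site. The Kcnq3 peaks of 129 lay at chr15:66134377-66143612 and those of B6 at chr15:66284039-66288138. The Kcnip4 peak of B6 with vitamin C replicate 2 (0.973 kb) lay at chr5:48732913-48733885, outside the main Kcnip4 region.

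Proteins that join potassium channels and other ion channel families were counted in the same way. Of 8 partner genes, Lrrc26 (12 libraries) and Lrrc38 (11), which encode auxiliary subunits of the BK channel, were called in at least 10. Dpp10 (8) and Dpp6 (3), partners of the Kcnd channels, and Abcc8 (7), the sulfonylurea receptor, were called less widely, and Lrrc52, Lrrc55 and Abcc9 in 0. Voltage-gated sodium channel genes had 3 of 14 in at least 10 libraries (Scn4b and Scn8a among them) and 8 in 0. Calcium channel pore subunits had 3 of 10 (Cacna1a, Cacna1e and Cacna1h) and 0 uncalled. Of the pacemaker channel genes, Hcn2 was 1 of 4 called in at least 10 libraries, whereas chloride channel genes of the Clcn family had 0 of 9, with 7 called in 0. The 21.5% of potassium channel genes lay between these lists, and the difference between lists was not tested.

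When each list was reduced to its 748 peaks of largest total signal, so that all lists were equally long, 8 to 13 potassium channel genes were called per library. This was 8.6 to 14% of the 93 genes, beside 2.44 to 4.76% of all protein-coding genes. In at least 10 of these lists 5 genes were called, beside 2.15% of all protein-coding genes, among them Kcnh3 and Kcnk4 in 12 and Kcna1 and Kcnj4 in 11. Of the 15 other genes called in at least 1 of the equal lists, Kcnk12, Kcnk15 and Kcnk9 were called in 9 and Kcnk13 in 8. Kcna6, called in 11 full lists, and Kcnd3 and Kcnma1, called in 10, were called in 0 of the equal lists.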

How the data were processed

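The authors deposited a peak list for each H3K27me3 CUT&Tag library, with the position, total signal and maximum signal of each peak as whole numbers. The scaling of the signal to depth is not stated in the lists, so signal was used only to rank or select peaks within a list. Per the submitters' processing notes, cutadapt, Bowtie2, Picard, SEACR and the genome build mm10 were used. No version or setting of these tools is given in the sources used here. Depth is unknown, and so is the precision it gives.

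Gene spans were taken from RefSeq on GRCm38.p6 (mm10). Start sites and promoter bases came from the RefSeq promoter table of that assembly, which lists 69 of the 93 genes. A start counted as called within 1 kb. Coordinates are 1-based. Overlapping peaks of different libraries were merged into regions.

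Samples were grouped by the background and diet in the labels. Diet, background and their interaction were tested per gene by exact permutation (400 relabellings, smallest p 0.005, two-sided) with Benjamini-Hochberg adjustment over the 4426 protein-coding genes called in at least 1 library, at a threshold of 0.05. An adjusted p under 0.05 over 4426 genes needs many genes at the smallest p at once, so adjustment could hardly call a gene. The 3 embryos of 1 pregnancy in B6 with vitamin C are not independent, and p-values measure the spread between these libraries. The test was run on simulated data with genes set to separate fully by diet and genes without a set difference. Whether it detects partial differences was not checked. Members and gene lists were chosen with earlier results of these data known, so lists are given as counts without a test.

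Widths in every library are given for genes called in at least 10 libraries and for leading genes by difference between diets or backgrounds. The rule took up to 6 genes per direction, ties broken by mean covered share, and the most often called gene of each subfamily. Those not given by library in the text are shown in the plot of percentiles by library. A few genes that the rule or the lists hold are counted but not reported here by name. Genes named outside it, in the family counts and neighbouring clusters, were named after their values were seen. Alternatives were windows of 0 and 2.5 kb, start sites alone, an overlap of 500 bp, peaks of at least 1 kb or at or above the median maximum signal, equal lists of 748 peaks, averaging by pregnancy, other permutation strata and each library left out. Omission of the 2 libraries of short peaks, or of the longest and the shortest list, was added after the data had been seen. Python 3.11.15, NumPy 2.4.6, pandas 2.3.3 and Matplotlib 3.10.9 were used.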

Additional observations from a re-analysis of the deposited data

How the results depend on the processing

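The number of potassium channel genes called in at least 10 libraries, 20, was 19 to 21 with other windows, overlaps and a minimum peak width of 1 kb (4.5 to 6.22% of all protein-coding genes). It was 20 to 24 with each library left out, counting genes called in at least 9 of the 11 that remain (5.93 to 7.31% of all genes). It was 7 with peaks at or above the median maximum signal (2.78% of all protein-coding genes) and 5 with equal lists (2.15%). Without the 2 libraries of short peaks it was 28 (7.62%), and without the longest and the shortest list 29 (7.94%). In both of these settings up to 2 libraries could still lack a peak. The number called in at least 1 library, 69, fell to 40 with peaks at or above the median maximum signal (13.3% of all genes) and to 20 with equal lists (7.27%). It ranged from 58 to 69 with each library left out (17.9 to 20.2% of all genes). The diet difference in the share of genes called ranged from -15.8 to -4.84 points with each library left out (all protein-coding genes -3.97 to -1.61) and was -0.896 with equal lists (all genes -0.386). For B6 minus 129 it ranged from -9.86 to 0.358 points with each library left out (all protein-coding genes -3.19 to -0.85). It was 0.538 without the 2 libraries of short peaks (all genes -1.26) and 3.76 without the longest and the shortest list (all genes -0.35). The cause was not tested. By exact permutation, 0 potassium channel genes had an adjusted p under 0.05 for diet, background or interaction in any alternative. Relabellings were few (200 with a library left out, 80 with pregnancies averaged), so adjustment over all tested genes could hardly call any. These counts of 0 thus do not show that there was no difference. Before adjustment up to 5 genes had a p under 0.05 for covered width by diet with a library left out (216 of 4420 genes tested in that setting), and 1 with pregnancies averaged (93 of 4426), without both short-peak libraries (70 of all genes) or without the longest and the shortest list (71). For covered width by background the count was 6 to 22 with a library left out (297 to 1120 of all genes), 2 with start sites alone (162) or with peaks at or above the median maximum signal (277) and 5 with equal lists (297). For interaction it was 2 without 129 without vitamin C replicate 2 (18 of all genes) or B6 with vitamin C replicate 1 (13). For presence by background it was 1 on omission of replicate 4 of B6 with (64 of all genes) or without vitamin C (23). Lists of unknown depth limit every count, since a gene without a peak may lie below what a sparse list could call. Averaging by pregnancy was not run for the background tests, nor other strata for interaction and covered width. No paired analysis was possible because the replicate numbers follow accession order and pair no embryos.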
